A study of Homo sapiens with 6 samples.

Results

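The colony-stimulating factors CSF1, CSF2 and CSF3 were followed in SW780 cells, with and without exposure to RC48. They were taken by gene symbol, and the 3 genes were all listed among the 16390 genes of the files. The set was chosen by name with the fold changes between these RC48 and Control libraries known. The values of the members in that comparison are therefore given as a description, without a p-value.

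SW780, a cell line from a human bladder cancer, was used as a luminal type. RC48 (disitamab vedotin) couples an ERBB2 antibody to a microtubule inhibitor. Total RNA was sequenced from 3 libraries of unexposed SW780 (Control) and 3 of RC48-exposed SW780 (RC48). All libraries came from 1 cell line, without a genetic change named in the labels, and the exposure time is not given in the sources used here. Nothing in the labels says that the replicates were separate cultures, so p-values measure only the spread between these libraries. Estimated counts summed to between 16453233 and 17988030 per library. In such bulk libraries, fewer cells making a transcript and less transcript per cell cannot be told apart. Levels are given as estimated counts, as CPM (counts divided by library size after edgeR's TMM scaling), or as TPM (also scaled for transcript length).

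Colony-stimulating factors are secreted proteins that drive blood progenitors to become myeloid cells and keep mature myeloid cells alive. CSF1 (M-CSF) acts on macrophages through the receptor CSF1R. CSF2 (GM-CSF) acts on granulocytes, macrophages and dendritic cells through CSF2RA paired with CSF2RB, and CSF3 (G-CSF) acts on neutrophils through CSF3R. Epithelial cells and tumors can secrete all of them. Inflammatory signals raise transcription of CSF2 and CSF3, and AU-rich elements near the end of their mRNAs make these mRNAs short-lived.

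The 3 genes lie on different chromosomes of GRCh38. CSF1 (NCBI gene 1435) is at chr1:109910506-109930992, CSF2 (NCBI gene 1437) at chr5:132073789-132076170 and CSF3 (NCBI gene 1440) at chr17:40015440-40017813. Their transcripts differ in AU-rich sequence. To show this, the 30 bases with the most ATTTA pentamers are printed for the longest transcript of each gene in GENCODE release 29, with ATTTA in capitals. Each stretch is in the last exon, after the coding sequence, on the plus strand.
CSF1 (chr1:109930917-109930946, exon 9 of 9): taaagtcATTTAaatatctATTTAaaagat
CSF2 (chr5:132076076-132076105, exon 4 of 4): aaaatATTTATTTATTTATTTATTTAagtt
CSF3 (chr17:40016979-40017008, exon 4 of 4): atgtATTTAtctctATTTAatATTTAtgtc
The CSF2 stretch holds 5 pentamers in an unbroken tandem, whereas that of CSF3 holds 3 and that of CSF1 holds 2. Over the whole transcript, the density of ATTTA was 10.2 per kilobase in CSF2, 4.18 in CSF3 and 0.950 in CSF1. Of 16289 genes with a transcript sequence, 0.00614% were at least as dense as CSF2, 1.498% as CSF3 and 51.9% as CSF1. CSF2 held 3 copies of the nonamer TTATTTATT, a number reached by 1.03% of these genes, and the other members held 0.

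Upstream sequence was at hand for CSF2 only. The 250 bases before its start, at chr5:132073539-132073788 on the plus strand (RefSeq, GRCh38.p14), are therefore the only ones printed. Capitals mark matches to 3 short motifs that were searched on both strands.
CSF2 promoter: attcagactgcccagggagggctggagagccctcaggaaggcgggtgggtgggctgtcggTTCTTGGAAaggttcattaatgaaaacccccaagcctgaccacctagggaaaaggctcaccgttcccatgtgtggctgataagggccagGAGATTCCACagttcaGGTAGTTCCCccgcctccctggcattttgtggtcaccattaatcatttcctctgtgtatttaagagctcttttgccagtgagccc
The first match, at positions −190 to −182 from the start, is to the STAT motif TTCNNNGAA, held by 6.57% of 35116 upstream sequences of the same length. The second, at −101 to −92, is the cytokine element CK-1, which was held by 0.0399% of them. The third, at −85 to −76 on the minus strand, is to the loose NF-κB motif of GGG and CC with 5 bases of any kind between them, which 54.4% of the sequences held. These matches do not overlap. The AP-1 motif TGANTCA (in 6.57% of the sequences) and the TATA motif TATAAA (in 10.7%) had no match in these letters.

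CSF1 was the most abundant member and was higher in RC48. Its estimated counts were 340, 392 and 385 in Control replicates 1, 2 and 3, and 1161, 878 and 964 in RC48 replicates 1, 2 and 3. The lowest RC48 library thus lay far above the highest Control library. Scaled to library size, CSF1 averaged 21.7 ± 1.75 CPM in Control and 58.1 ± 10.9 CPM in RC48 (SD, n = 3 each). The fitted log2 fold change was 1.42 with a standard error of 0.17, or 2.68-fold. In TPM it was 11.6 ± 1.04 in Control and 29.3 ± 2.82 in RC48. This placed CSF1 above 49.4% of all listed genes in Control and above 69.8% in RC48.

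CSF2 was close to the detection limit in Control and clearly present in RC48. Control replicates 1, 2 and 3 held 1, 4 and 1 counts, and RC48 replicates 1, 2 and 3 held 53, 52 and 57. The RC48 libraries differed little among themselves, and the groups did not overlap. The level was 0.116 ± 0.10 CPM in Control and 3.12 ± 0.133 CPM in RC48 (SD, n = 3 each). The fitted log2 fold change was 4.66 with a standard error of 0.39. The summed counts, 6 in Control and 162 in RC48, corresponded to a scaled ratio of 26.8, for which the exact 95% interval ran from 12.0 to 74.1. This interval, like the others on counts, covers counting error only. Control replicate 2 held 4 of the 6 Control counts, and without it the log2 fold change was 5.57. In TPM, CSF2 was 0.427 ± 0.350 in Control and 10.04 ± 0.928 in RC48, which placed it above 21.0% and 48.3% of the listed genes.

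CSF3 was barely detected in either group. It had 1, 1 and 0 counts in Control replicates 1, 2 and 3, and 2, 1 and 1 in RC48 replicates 1, 2 and 3. The groups overlapped. The ratio of the sums, 4 against 2 counts, was 1.98 once scaled. Its exact 95% interval ran from 0.284 to 21.9, so a difference was not detectable at this depth. The limit that a count of 0 allows, 3 counts over a group, corresponds to 0.0582 CPM in Control and 0.0578 CPM in RC48. CSF3 was too low for the filter of the fit and has no fitted fold change.

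**Figure D1:**
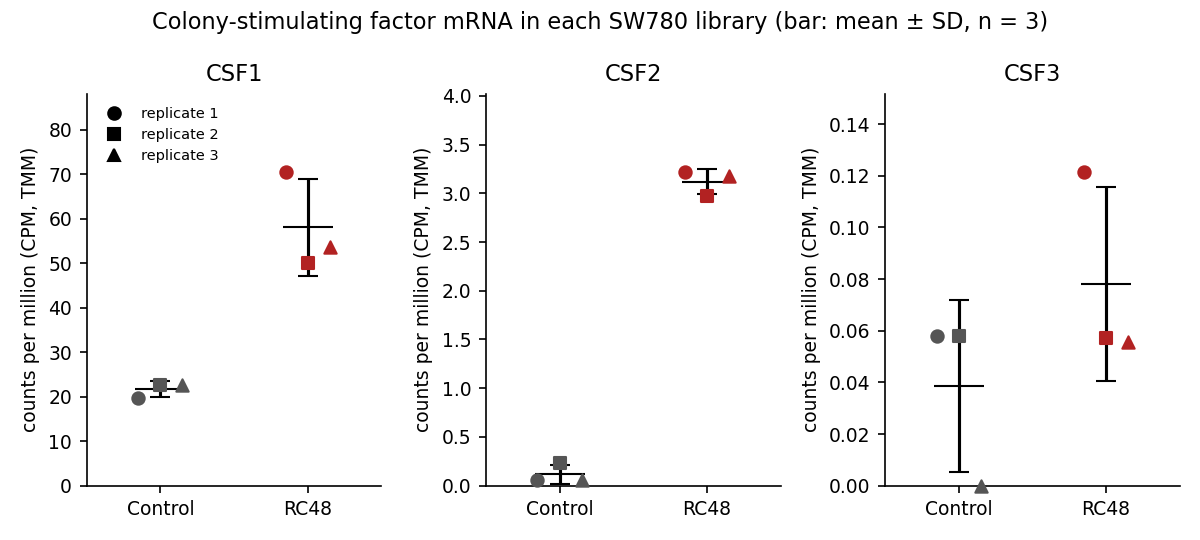
Expression of CSF1, CSF2 and CSF3 in CPM (vertical axis, a separate linear scale for each gene) in the 3 Control and 3 RC48 libraries (points, shaped by replicate number), with the mean and SD of each group. The RC48 libraries of CSF1 sit between 50.1 and 70.5 CPM and those of CSF2 between 2.97 and 3.22 CPM, above all Control libraries, while CSF3 stays at or below 0.121 CPM with overlapping groups.

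In the edgeR fit across all genes, 288 of 13055, or 2.21%, passed the threshold of 0.05 on the Benjamini-Hochberg adjusted p-value and are called below. Of these, 258 were higher in RC48 and 30 lower. CSF1 and CSF2, the 2 members that passed the filter, were among the called genes. They ranked 150 and 17 by log2 fold change among the 13055. Nothing is read from this count, because the members were chosen with this comparison known and CSF2 passed the filter only through its RC48 counts. CSF1 lost its call in each fit without 1 Control library. The groups of the same 2 members did not overlap, as was the case for 31.5% of the genes tested. The share without overlap was 17.4% for genes higher in RC48 and 14.1% for genes lower.

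The order of the levels per length was CSF1, CSF2, CSF3 in all 6 libraries. CSF1 was 14.5 to 51.8 times CSF2 in TPM in the Control libraries and 2.57 to 3.62 times CSF2 in the RC48 libraries. The distance between both thus narrowed, while CSF1 stayed ahead. CSF3 had a TPM of 0.060 ± 0.052 in Control and 0.110 ± 0.043 in RC48 (SD, n = 3 each). In Control, CSF2 and CSF3 rested on 6 and 2 counts, and the difference of their means was close to the SD of CSF2, so their order is not firm there. In RC48, the lowest CSF2 library (8.98 TPM) lay far above the highest CSF3 library (0.160 TPM).

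The RC48 libraries differed from each other in how their values followed the GC content of the transcripts, which bears on CSF1. The longest CSF1 transcript is 59.5% GC and that of CSF3 59.9%, both in the ninth of 10 equal groups of genes ordered by GC content. CSF2, at 50.3%, is in group 6. Among the 1300 genes of the CSF1 group, the median log2 ratio to the Control mean was 0.63 in RC48 replicate 1, 0.0059 in replicate 2 and 0.23 in replicate 3. Such genes were thus shifted upward in RC48 replicate 1, the library with the highest CSF1 value. In the CSF2 group the medians were 0.14, 0.0078 and 0.067. After a correction for each library's trend with GC content, CSF1 was 21.3 to 25.6 CPM in the Control libraries and 49.7 to 55.6 CPM in the RC48 libraries. RC48 replicate 1 was then the lowest of the 3 RC48 libraries, and the groups still did not overlap. The log2 fold change of CSF1 was 1.12 (standard error 0.10) after this correction, and that of CSF2 was 4.57 (standard error 0.37). Over all genes, the correction raised the number called to 934 (7.15%), of which 588 were higher and 346 lower.

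**Figure D2:**
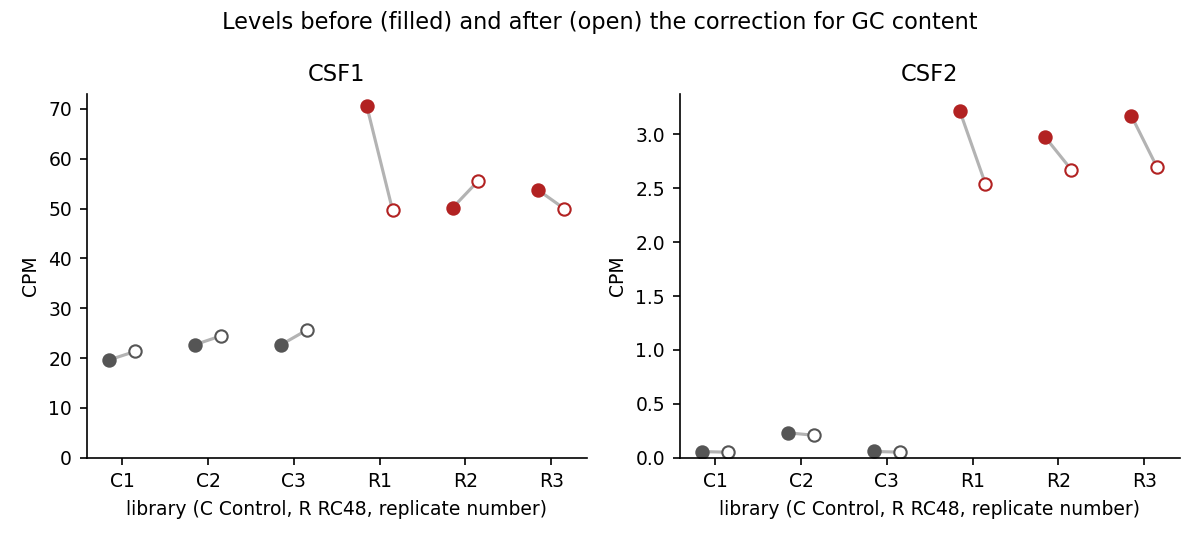
CPM (vertical axis, linear) of CSF1 and CSF2 in each library before (filled) and after (open) the correction for GC content, Control libraries in grey and RC48 libraries in red. The correction lowered CSF1 in RC48 replicate 1 from 70.5 to 49.7 CPM and left all RC48 libraries above all Control libraries for both genes.

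The receptors of the 3 factors were at or near 0 in these cells. Of the 4 receptor genes, 3 were listed and 0 had enough counts to be tested. CSF1R, the receptor tyrosine kinase for CSF1, had 0 counts in every Control library and 1, 1 and 2 in RC48 replicates 1, 2 and 3. CSF2RA, the subunit specific for CSF2, had 1, 0 and 1 counts in Control and 2, 3 and 2 in RC48. CSF3R had 1, 4 and 2 counts in Control and 1, 2 and 3 in RC48. The ratio of RC48 to Control was 3.47 for CSF2RA and 0.851 for CSF3R, and the exact 95% intervals ran from 0.661 to 34.3 and from 0.236 to 2.96. Both intervals include no difference.

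Among 7 ligands related by receptor or function, 5 were listed and 2 were tested, and neither was called. KITLG (stem cell factor) had 1100, 1052 and 1131 counts in Control replicates 1, 2 and 3, and 344, 1005 and 657 in RC48 replicates 1, 2 and 3. RC48 replicate 1 was by far the lowest. KITLG differed by −0.73 on the log2 scale (standard error 0.32, adjusted p = 0.260, edgeR). Its groups did not overlap, as for 14.1% of all genes tested on the lower side. After the correction for GC content it differed by −0.42 (standard error 0.13, adjusted p = 0.0978, edgeR). FLT3LG, which supports dendritic cell progenitors, had 124, 131 and 97 counts in Control and 255, 105 and 142 in RC48, or 0.52 on the log2 scale (standard error 0.34, adjusted p = 0.365, edgeR). The groups overlapped. IL34, the other known ligand of CSF1R, had 1 count in every Control library and 2, 2 and 1 in RC48. The receptors of these related ligands numbered 6, all listed, of which EPOR was tested and not called.

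CSF1 is made as a membrane protein that proteases release, and CSF2 and CSF3 are secreted directly. Of 5 genes for this release (ADAM10, ADAM17, FURIN, RHBDF1 and RHBDF2), all 5 were tested and 0 were called. Their median log2 fold change was 0.54, against 0.016 over all genes tested. The list was split. The proteases ADAM10 and ADAM17 had −0.30 and −0.10 with overlapping groups, whereas FURIN, RHBDF1 and RHBDF2 had 0.54, 0.57 and 0.62. FURIN, RHBDF1 and RHBDF2, whose longest transcripts are 61.7% to 62.9% GC, were highest in RC48 replicate 1. After the correction for GC content the median of the list was 0.21, and 0 were called as well. ADAM10 and ADAM17 were then at 0.043 and 0.29.

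Of the inducing ligands known to raise CSF transcription, those tested were higher in RC48, as CSF1 and CSF2 were. Of 8 listed for this role, 6 were in the files and 4 were tested. All 4 were called and higher in RC48, against 2.21% of all genes called, with a median log2 fold change of 4.40. TNF and LTB passed the filter only through their RC48 counts. Where at least 10 counts were required in every library, 2 were called. IL33 and IL36G were not tested, with 8 and 7 counts summed over Control and 4 and 5 over RC48. LTB (lymphotoxin beta) had 0 counts in every Control library and 180, 185 and 235 in RC48 replicates 1, 2 and 3, at least 198.5-fold higher than 3 counts over the Control group. TNF had 0, 0 and 1 counts in Control and 53, 51 and 38 in RC48, which is close to the counts of CSF2. Its ratio was 140.9 (exact 95% interval 24.9 to 5604). IL1A was already present in Control, at 159, 144 and 162 counts, and reached 511, 880 and 642 in RC48. IL1A differed by 2.11 on the log2 scale (standard error 0.21, adjusted p = 0.00224, edgeR). IL1B differed by 1.74 (standard error 0.13, adjusted p = 6.4e-04, edgeR). These 4 genes stayed called in each of the 6 fits without 1 library.

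NF-κB is the transcription factor family through which TNF and interleukin 1 act on the CSF2 and CSF3 promoters. A list of 11 genes held its subunits, its inhibitors and the target gene BIRC3. All 11 were tested and 7 were called, all higher in RC48, against 2.21% of all genes called. The median log2 fold change of the 11 was 1.55. After the correction for GC content 8 were called, NFKBIB being added, and the median was 1.22. TNFAIP3 (A20), an inhibitor of the pathway, had 91, 77 and 88 counts in Control and 875, 1096 and 1044 in RC48, which is 3.54 on the log2 scale (standard error 0.15, adjusted p = 7.7e-05, edgeR). BIRC3, an inhibitor of apoptosis and NF-κB target, went from 1.94 ± 0.397 to 15.6 ± 3.37 CPM (SD, n = 3 each), or 3.01 on the log2 scale (standard error 0.24). RELB, a subunit of the noncanonical branch, went from 8.36 ± 1.14 to 65.1 ± 16.4 CPM (SD, n = 3 each), or 2.96 on the log2 scale (standard error 0.22). NFKB2, NFKBIA, NFKBIE and TNIP1 were called as well, and NFKBIE lost its call without any 1 Control library or RC48 replicate 3. The subunits NFKB1, RELA and REL had log2 fold changes of 0.37, 0.16 and −0.57 and did not pass the test.

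Other factors that bind CSF promoters moved less. Of 17 such genes (AP-1, ETS, C/EBP, NFAT, RUNX and SP families), 16 were tested and 1 was called, against 2.21% of all genes. This was JUN, with 194.0 ± 6.80 CPM in Control and 304.0 ± 18.4 CPM in RC48 (SD, n = 3 each), or 0.65 on the log2 scale (standard error 0.11, adjusted p = 0.0267, edgeR). JUN was called in 7 of 17 alternatives, and not after the correction for GC content (adjusted p = 0.136, edgeR), with the replicate block, or without any 1 Control library or RC48 replicate 3. That correction called 3 other genes of the list, ETS1 higher (log2 fold change 0.44) and FOS and FOSB lower (−0.35 and −0.47). The median over the 16 was 0.23, and 0.013 after the correction.

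Genes that regulate the decay or stability of cytokine mRNAs, of which only some bind AU-rich elements, also had 1 called among 12 tested, against 2.21% of all genes. Their median log2 fold change was −0.16, and turned to 0.10 after the correction for GC content, which also called ZFP36L1 higher. ZC3H12A (Regnase-1), a ribonuclease that degrades cytokine mRNAs, had 787, 853 and 819 counts in Control and 3935, 3340 and 4004 in RC48. It differed by 2.19 on the log2 scale (standard error 0.13, adjusted p = 3.4e-04, edgeR), and it was called in all 17 alternatives. ZFP36 (tristetraprolin), which binds ATTTA repeats like those printed for CSF2, differed by 0.15 on the log2 scale (standard error 0.11, adjusted p = 0.418, edgeR). ELAVL1 (HuR), which stabilizes such mRNAs, had −0.17 (standard error 0.13, adjusted p = 0.407, edgeR).

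**Figure D3:**
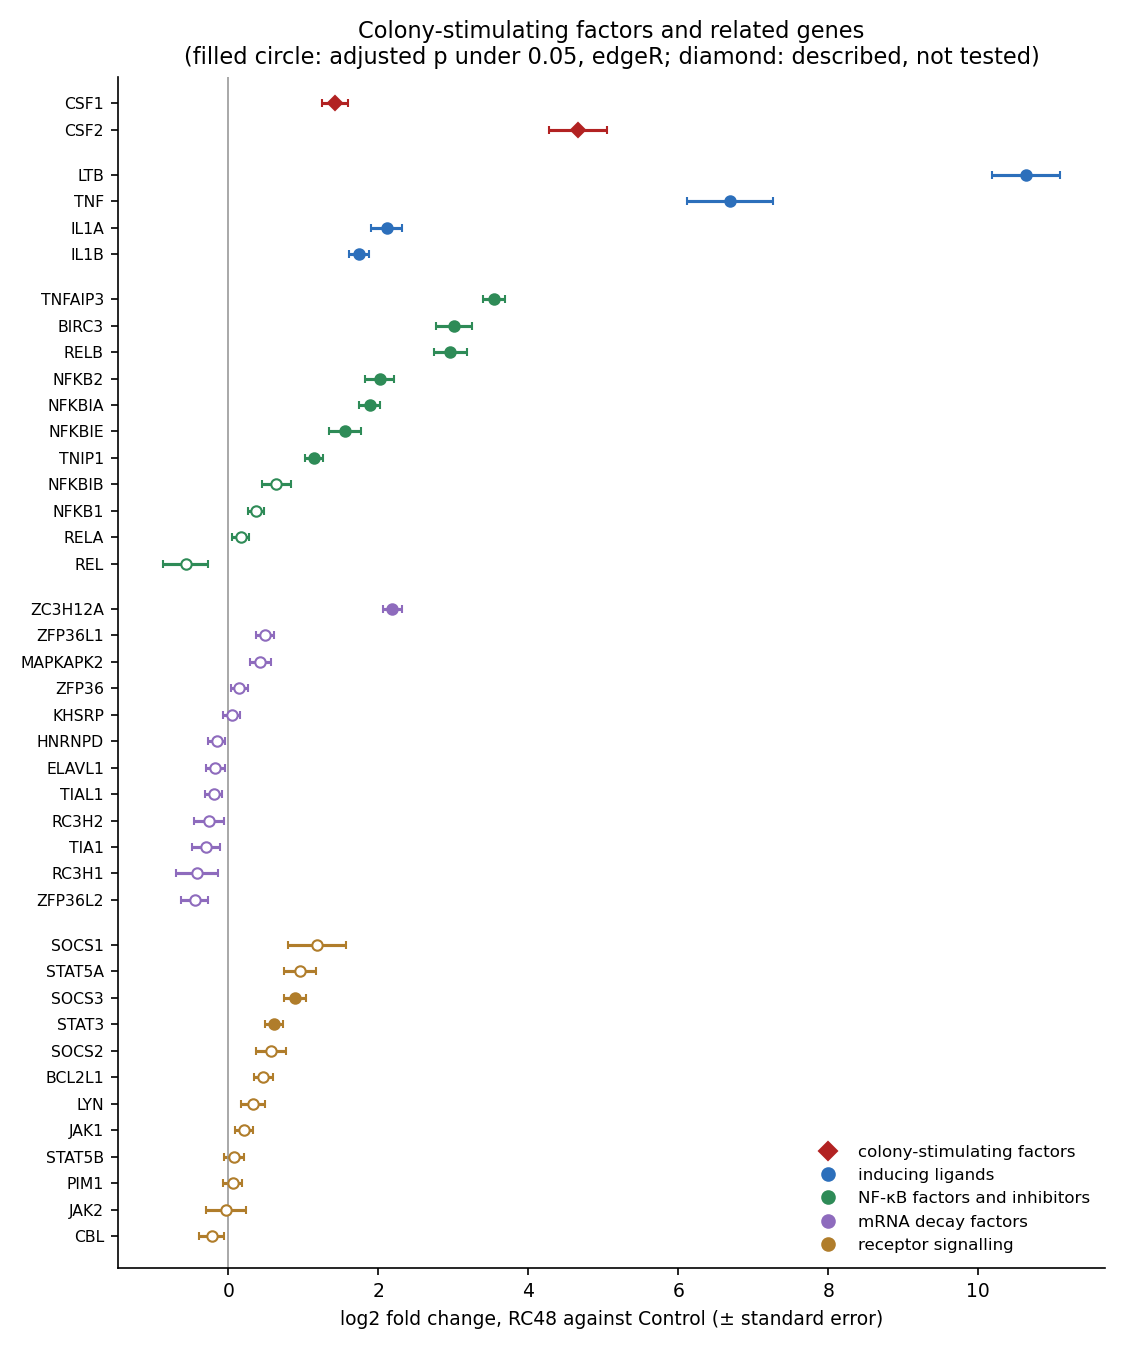
Log2 fold change of RC48 against Control (horizontal axis, with standard error) for CSF1 and CSF2 (diamonds, described without a test) and for tested genes of 4 related lists (circles, filled where the adjusted p-value was under 0.05 in edgeR). All 4 tested inducing ligands and 7 of 11 NF-κB genes are filled, against 1 of 12 mRNA decay genes and 2 of 12 receptor signalling genes.

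Downstream of the receptors, 12 of 13 signalling genes were listed and tested. Of these, 2 were called, both higher in RC48, against 2.21% of all genes. SOCS3, a feedback inhibitor that also acts on the CSF3 receptor, had 198, 196 and 236 counts in Control and 408, 374 and 397 in RC48, or 0.89 on the log2 scale (standard error 0.15, adjusted p = 0.0255, edgeR). STAT3 differed by 0.61 on that scale (standard error 0.12, adjusted p = 0.0440, edgeR). These calls were not firm. SOCS3 was called in 10 of 17 alternatives and STAT3 in 6, and both lost the call without any 1 Control library, without RC48 replicate 3 and in limma with 6 libraries. JAK2, the kinase of the CSF2 receptor, had −0.03 (standard error 0.26), and STAT5A and STAT5B had 0.96 and 0.07, none of them called. After the correction for GC content STAT5A was called as well (log2 fold change 0.66, adjusted p = 0.0042, edgeR).

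Cytokines often made together with CSF2 and CSF3 rose in most cases. Of 11, 10 were listed, 8 tested and 7 called, all higher in RC48, against 2.21% of all genes called. The median log2 fold change of the 8 was 5.08. CXCL3, CCL2 and CCL20 passed the filter only through their RC48 counts. CXCL1, with 14, 16 and 9 counts in Control, also needed its RC48 counts to pass. Where at least 10 counts were required in every library, 3 genes of the list were called. CXCL1 and CXCL8, which attract neutrophils, had log2 fold changes of 6.68 and 6.09 (standard errors 0.21 and 0.39). CCL2, which attracts monocytes, had 1, 0 and 0 counts in Control and 13, 22 and 14 in RC48, and lost its call without any 1 Control library, as did LIF, a cytokine of the interleukin 6 family. Reads of CXCL1 and CXCL3 may be shared, since these genes are close paralogs. Their estimated counts were whole numbers in every library, and sharing was not tested. IL11, also of this list, differed by −0.083 on the log2 scale (standard error 0.19) and was not called.

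Over the 10 lists together, 87 of 94 genes were listed and 71 tested, of which 22 were called, all higher in RC48. Of the called genes, TNF, LTB, CXCL1, CXCL3, CCL2 and CCL20 needed their RC48 counts to pass the filter. Where at least 10 counts were required in every library, 15 were called. Among all 13055 genes tested, 2.21% were called, 1.98% higher and 0.23% lower. The correction for GC content called 27 genes of the lists, of which 2 were lower, against 7.15% of all genes. The lists were chosen with earlier results of these data known, so the count is a description.

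Markers were checked because leukocytes, fibroblasts and endothelial cells also make CSFs. Of 14 urothelial markers, all were listed, and their summed level was 11937 to 13715 CPM in Control and 13694 to 18015 CPM in RC48. KRT7 was the largest part of the sum, at a mean of 5301 CPM in Control and 7634 CPM in RC48. Its log2 fold change was 0.53, and 0.19 after the correction for GC content. Of the 13 markers tested, 4 (EPCAM, FOXA1, UPK1B and KRT20) were lower without overlap and 1 (KRT7) higher. Over all genes tested these shares were 14.1% and 17.4%. KRT20 was the only urothelial marker called, at 1.98 ± 0.0439 CPM in Control and 0.667 ± 0.290 CPM in RC48 (SD, n = 3 each). It lost the call without any 1 Control library and with library sizes alone. After the correction for GC content UPK1B was called lower too. Of 14 leukocyte markers, 8 were listed, and they summed to 18.6 to 19.0 CPM in Control and 23.1 to 43.0 CPM in RC48. Most of this was CD68, at 16.6 to 17.1 CPM in Control and 17.5 to 34.1 CPM in RC48. Of the 6 tested, 4 (CD3E, CD14, CD68 and ITGAM) were higher in RC48 without overlap, against 17.4% of all genes tested. However, CD3E, CD14 and ITGAM passed the filter only through their RC48 counts, so nothing is read from this share. PTPRC (CD45), the common leukocyte marker, had 0 counts in Control and 1, 1 and 0 in RC48. ITGAM (CD11b), an integrin of myeloid cells, was called, with 0, 5 and 0 counts in Control and 69, 54 and 65 in RC48, and lost the call without Control replicate 3 (adjusted p = 0.0718, edgeR). The 6 fibroblast markers listed, of 7, summed to 443.7 to 475.0 CPM in Control and 444.6 to 558.5 CPM in RC48, nearly all from COL3A1, LUM and COL1A1, while DCN, PDGFRA and PDGFRB had fewer than 10 counts each over all libraries. The 6 endothelial markers summed to 27.9 to 29.7 CPM in Control and 18.4 to 25.0 CPM in RC48. None of the fibroblast or endothelial markers was called, and after the correction for GC content LUM, PECAM1 and VWF were called lower. The part of these markers in the levels of the CSF genes was not tested. ERBB2, the target of RC48, was 204.9 ± 3.05 CPM in Control and 228.8 ± 46.3 CPM in RC48 (SD, n = 3 each), or 0.16 on the log2 scale (standard error 0.16, adjusted p = 0.519, edgeR).

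The nearest protein-coding neighbours of the 3 genes did not pass the test where they could be tested. Beside CSF1, EPS8L3 and AHCYL1 had log2 fold changes of 0.37 and −0.047 (standard errors 0.20 and 0.11). IL3 lies 10585 bases before CSF2 and is not analysed here, and P4HA2 on the other side had 0.73 (standard error 0.17, adjusted p = 0.0805, edgeR). Beside CSF3, PSMD3 had 0.57 (standard error 0.17, adjusted p = 0.162, edgeR) and MED24, which lies 1291 bases after CSF3, had 0.39 (standard error 0.25). MED24 was at 70.5 ± 3.63 CPM in Control and 92.6 ± 36.8 CPM in RC48 (SD, n = 3 each), so a gene next to CSF3 was well covered while CSF3 itself was not. After the correction for GC content, P4HA2 and PSMD3 were called, with log2 fold changes of 0.67 and 0.40 (adjusted p = 0.0184 and 0.0436, edgeR).

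Genes with the most similar pattern were ranked by Pearson's r of log2 CPM over the 6 libraries, among tested genes whose higher group averaged 10 CPM or more. For CSF1 these were ELMO2, COL6A2 and UGT1A10 (r = 0.9993, 0.9989 and 0.9981, over 10175 genes). For CSF2 they were HBEGF, GADD45A and UBD (r = 0.9975, 0.9974 and 0.9969, over 10176 genes). All points share the split into Control and RC48, and 36 genes had r above 0.99 with CSF1 and 9 with CSF2. A high r did not mean a similar size of difference. COL6A2 (a collagen VI chain) had a log2 fold change of 1.18, close to that of CSF1, and ELMO2 (an adaptor of cell engulfment) had 0.31. HBEGF, an epidermal growth factor receptor ligand, had 0.32, GADD45A, a stress-induced gene, 0.95, and UBD (FAT10), a ubiquitin-like protein, 8.80 with 5 counts over the Control libraries. UGT1A10 shares exons with its neighbouring UGT1A genes, so its counts are uncertain. CSF3 had too few counts for such a ranking.

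**Figure D4:**
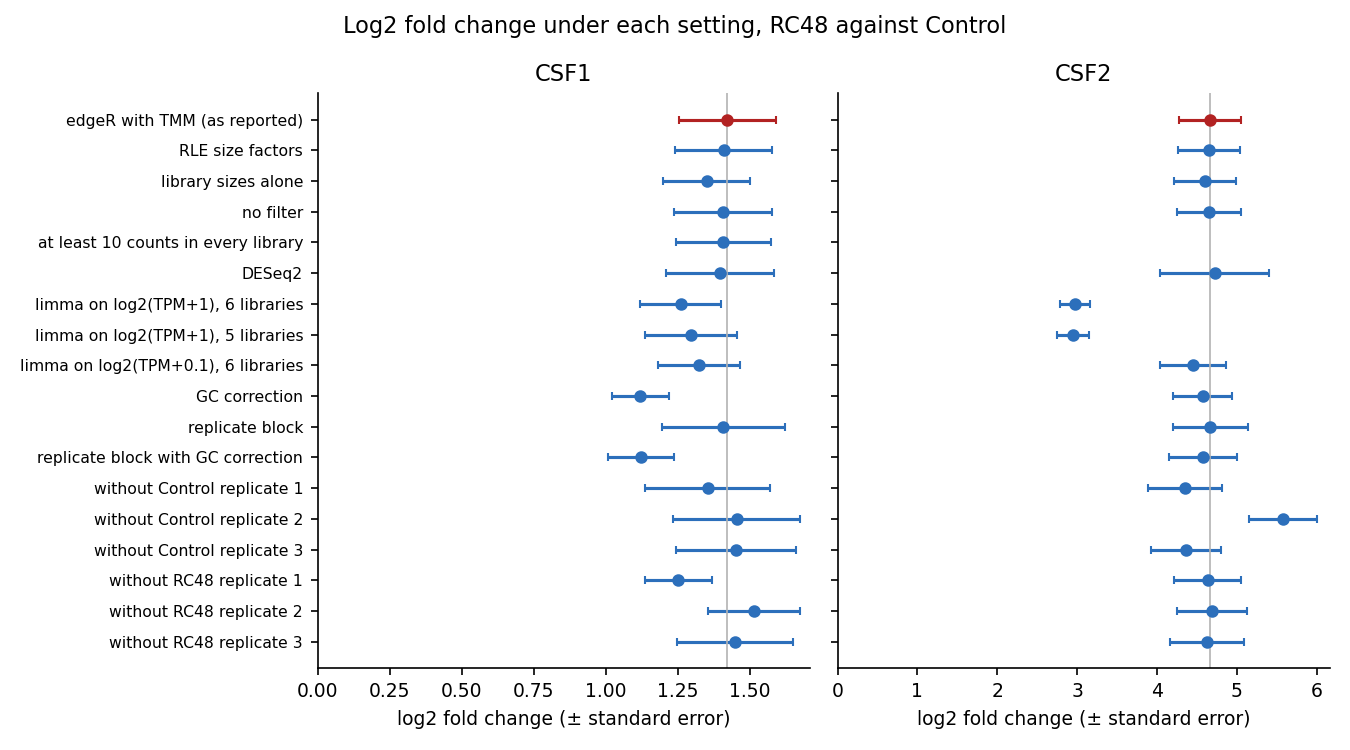
Log2 fold change (horizontal axis, with standard error) of CSF1 and CSF2 under the reported fit (red) and each alternative (blue). CSF1 ran from 1.12 to 1.52 and CSF2 from 2.95 to 5.57, the lowest CSF2 values coming from limma on log2(TPM+1), and CSF2 was filtered out where at least 10 counts were required in every library.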

How the data were processed

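Total RNA of SW780 was sequenced in 6 libraries, 3 Control and 3 RC48. Per the study, the authors cleaned reads in SOAPnuke, aligned them by Bowtie2 and used RSEM for gene-level quantification, and the submitters' processing notes name the build hg38. Versions and annotation are not given in the sources used here. The deposited estimated counts are not normalized, and the authors also deposited TPM for 5 libraries. TPM of RC48 replicate 2 was derived here from its counts, with effective lengths taken from the other libraries. Applied to RC48 replicate 3, the procedure missed the deposited TPM by a median of 0.00993 on the log2 scale (11982 genes).

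Estimated counts were rounded, filtered with filterByExpr, scaled by TMM and fitted in edgeR, using the quasi-likelihood test (R 4.3.3, edgeR 4.0.16, limma 3.58.1), with Benjamini-Hochberg adjustment over all genes tested and a threshold of 0.05. The authors' method, limma on log2(TPM+1), was an alternative, since TPM of 1 library was computed here. The correction for GC content subtracted each library's loess trend (span 0.3) of log2 CPM (prior count 2) on the GC content of the longest GENCODE transcript, known for 16289 genes (99.4%). Library totals differed by at most 1.09 times. Over replicates, chi-square per degree of freedom was 1.48 to 11.4 in Control and 21.7 to 130.5 in RC48, where 1 is sampling noise. The procedure was tested on simulated data.

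The members and all gene lists were chosen with earlier results of these data known. Named are the members, ERBB2, receptors and related ligands with at least 10 counts, the 3 largest changes among called genes of each other list, the nearest protein-coding neighbours, and the 3 genes most alike to each member. Other genes named with values (such as CSF1R, CSF2RA, IL34, IL1B, IL33, IL36G, ZFP36, ELAVL1, JAK2, STAT5A, STAT5B, IL11, NFKB1, RELA, REL, ETS1, FOS, FOSB and the markers) were singled out after their values were seen. Gene positions and upstream sequence are from RefSeq (GRCh38.p14). Figures were drawn with matplotlib 3.10.9.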

Additional observations from a re-analysis of the deposited data

How the results depend on the processing

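The higher level of CSF1 and CSF2 in RC48 kept its direction in every alternative that gave a value, 17 for CSF1 and 16 for CSF2. CSF1 moved by more than the spread between replicates with the correction for GC content (log2 fold change 1.12). The same held for that correction combined with the replicate block (1.12). CSF1 ran from 1.25 to 1.52 with 1 library left out. It was called in 14 alternatives, and not without any 1 Control library. CSF2 was called in 16. These calls are a description, since both members were chosen with this comparison known and CSF2 passed the filter only through its RC48 counts. CSF2 moved with limma on log2(TPM+1), to 2.97 with 6 libraries and 2.95 with 5, a scale that understates the change of low genes. It lay between 4.35 and 5.57 with 1 library left out. The number of genes called, 288, was 676 with DESeq2, 2854 with limma on log2(TPM+1) over 5 libraries (819 higher), 934 with the correction for GC content and 598 with the replicate block and that correction. With 1 library left out it lay between 68 (Control replicate 3 omitted) and 3726 (RC48 replicate 2 omitted, 1862 of them higher), against 71 and 78 when Control replicate 1 or 2 was omitted, and 897 and 93 for RC48 replicate 1 or 3. The 22 called genes of the 10 lists, all higher, became 15 to 32 over the other alternatives and 16 to 39 with 1 library left out, where 6 of the 39 without RC48 replicate 2 were lower.

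Same-numbered Control and RC48 libraries did not deviate together (r = 0.0020, −0.13 and 0.0048 for numbers 1, 2 and 3). Libraries of unlike number gave r from −0.11 to 0.13. With 3 libraries per group, and GC trends that differ between the RC48 libraries, these values cannot tell whether the numbers pair the samples. With the replicate block, 331 genes were called (277 higher), and CSF1 and CSF2 had log2 fold changes of 1.41 and 4.67. Mean TPM of CSF2 in Control was 0.427, and 0.225 without Control replicate 2. Depth limits CSF3, the receptors and CSF2 in Control, all at 4 counts or fewer per library.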
